A study of Gallus gallus with 6 samples.

Results

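The genes described here build and move the mitotic chromosome: the centromere and kinetochore, the spindle checkpoint, the Aurora and Polo-like kinases, and the condensin and cohesin rings. They were chosen by gene name alone (names beginning with CENP, NCAP, AURK, BUB, PLK, SKA, SMC or STAG as the rule for these families sets out, SPC24 and SPC25, and NDC80, NUF2, TTK, MAD2L1, INCENP, BIRC5 and ESPL1). The rule took 41 of the 26591 gene entries in the tables, 11074 of which carry a name. The RNA came from cultured muscle cells of the chicken embryo (primary cells, passage 1), with 3 libraries labelled proliferating myoblast and 3 labelled differentiated myotube. The myoblasts were kept in RPMI-1640 with 15% fetal bovine serum and the myotubes in RPMI-1640 with 2% horse serum, each with 2% penicillin and streptomycin, so the state of the cells and the serum cannot be told apart. The labels give neither the length of differentiation nor the share of fused cells. They also leave unsaid whether the replicates were separate cultures, and the p-values below then measure no more than the spread between 3 and 3 libraries, possibly a technical one.

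A centromere is marked by nucleosomes that hold the histone variant CENP-A, on which an inner layer of CENP proteins sits through the whole cell cycle. In mitosis an outer layer, led by the NDC80 complex, grips spindle microtubules, while checkpoint proteins hold back anaphase until every chromosome is attached. Condensin folds chromosomes for division, whereas cohesin holds sister chromatids together and also shapes chromosomes in cells that do not divide. Myoblasts leave the cell cycle as they become myotubes, whose nuclei do not divide again.

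Of 12 muscle lineage markers tested, 6 were lower, 1 (MYBPC1, a thick filament protein) was higher and 5 had no call in the libraries labelled myotube. Over all genes tested, 29.1% were lower and 30.0% higher. The list mixes factors of undifferentiated myoblasts, such as MYF5, with genes of differentiated muscle, and among the latter only MYBPC1 rose. DES, the muscle intermediate filament, was at 613.4, 541.5 and 1279.3 FPKM (counts scaled to gene length and library total) in the myoblast libraries and at 148.5, 144.5 and 133.2 in the myotube libraries, and the myosin MYH15 was at 192.8, 168.8 and 364.9 against 91.6, 90.8 and 100.8. Both were called lower, while MYOG, the factor that drives myoblasts into differentiation, had no call. MYF5, a factor of undifferentiated myoblasts, was lower too, at 359.8, 335.9 and 185.2 against 34.1, 46.7 and 30.1 FPKM. MYBPC1 was at 0.475, 0.516 and 2.31 FPKM in the myoblast libraries and at 5.77, 7.16 and 8.83 in the myotube libraries. The groups overlapped for CHRNA1, at 92.5, 81.0 and 149.6 against 107.9, 113.4 and 108.9 FPKM. They also overlapped for TMEM8C, at 96.0, 87.5 and 170.4 against 87.1, 91.3 and 82.1. TNNT3 was at 406.7, 438.7 and 966.4 FPKM against 357.1, 309.3 and 360.0. Myoblast and myotube below name the libraries as labelled.

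Total counts ran from 21893152 to 27546527 per library. Myoblast replicate 3 stood apart from the other myoblast libraries: the chi-square per degree of freedom over tested genes was 48.9 and 58.9 between it and myoblast replicates 1 and 2, against 10.5 between those and 7.68 to 17.3 among the myotube libraries. No batch is named in the labels.

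Most of the members measured were lower in myotubes. At an adjusted p under 0.05 (quasi-likelihood test of edgeR, adjusted by Benjamini-Hochberg), 37 of the 40 members tested fell, PLK2 alone rose, and no call was made for BUB3 and PLK3. Among all genes tested, 29.1% fell and 30.0% rose by the same rule, so that 50.7% of all calls were rises, against 39.0% with limma on TPM (FPKM set to the same sum in every library), where 38 members fell. At least 2-fold falls were found in 29 members, a size reached by 11.8% of all genes tested, and at least 4-fold falls in 17, a size reached by 4.27% of all genes tested. In the same 37 genes every myotube library lay below every myoblast library, as it did in 33.1% of all genes tested. The median log2 change of the members was -1.71, beside a median of 0.00 over all genes tested. Without myoblast replicate 3, 37 members fell, 31 of them at least 2-fold, and the median was -1.94. Over all alternatives the count of at least 2-fold falls ran from 23, with limma on log2(FPKM + 5), to that 31. The member that was not tested, SMC1B, the meiotic partner of SMC3, had 1 read in all in myoblasts and 2 in myotubes, under a floor of 3 counts, and gets no fold. In bulk RNA, fewer dividing cells and less of a transcript per cell cannot be told apart.

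**Figure D1:**
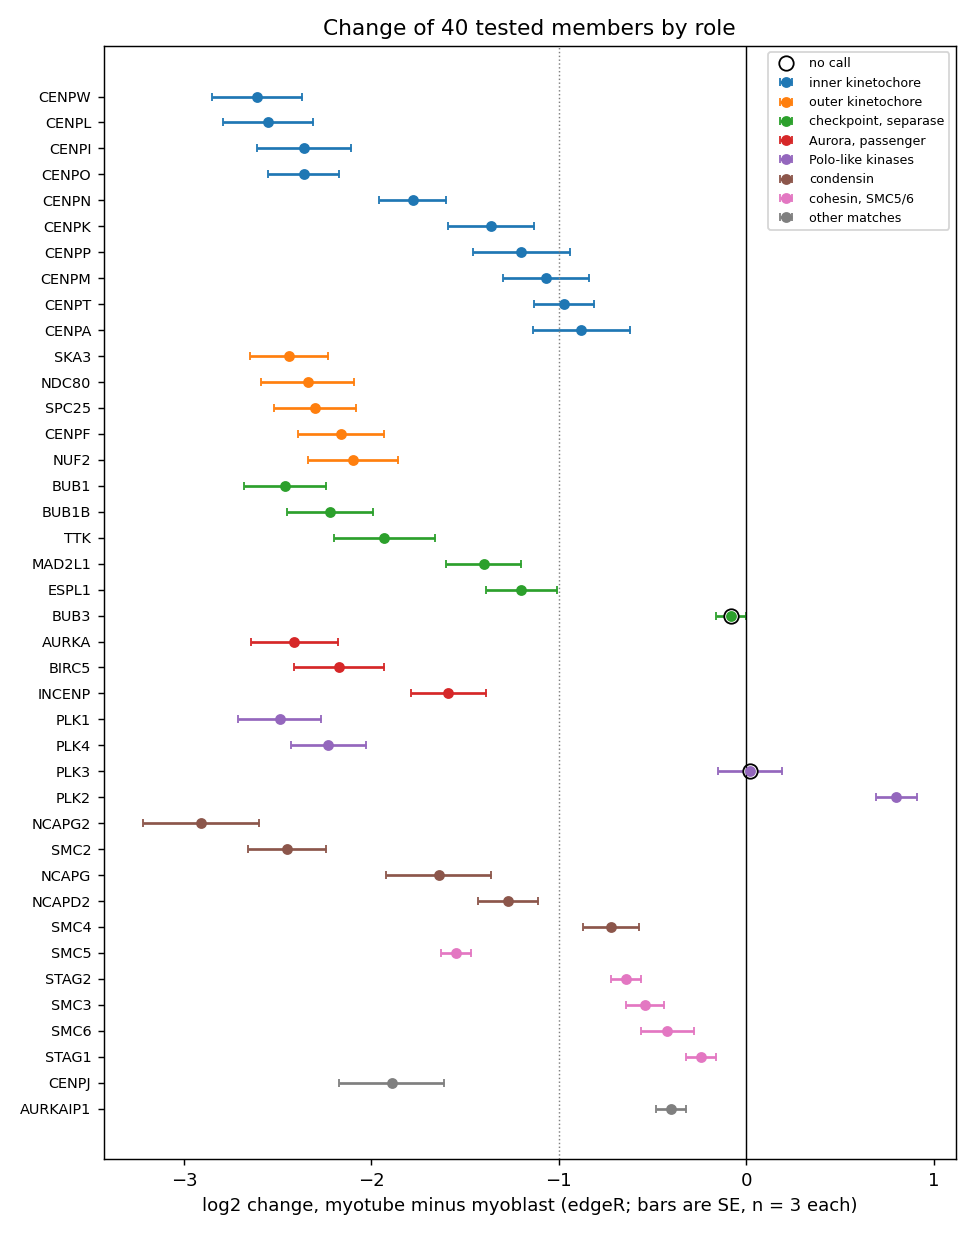
Log2 change from myoblast to myotube of the 40 tested members (x axis, log2; bars are SE, n = 3 libraries each), coloured by role, with rings on genes without a call and a dotted line at a 2-fold fall. The outer kinetochore genes lie close together between -2.44 and -2.10. The cohesin and SMC5/6 genes lie between -0.64 and -0.24, except SMC5 at -1.55, and PLK2 alone lies clearly above 0.

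In the inner kinetochore all 10 measured genes fell, but by very unequal amounts, from -2.61 for CENPW to -0.88 for CENPA. CENPW, a histone-fold protein that binds DNA together with CENPT, stood at 45.4, 51.6 and 26.6 FPKM in myoblast replicates 1 to 3 and at 5.93, 6.03 and 7.36 in the myotube libraries. The myotube libraries were far below even the lowest myoblast library, a log2 change of -2.61 ± 0.24 (SE, edgeR adjusted p = 4.75e-05). Its partner CENPT, which links centromeric DNA to the NDC80 complex, changed by only -0.97 ± 0.16, from 16.3 ± 3.77 to 7.95 ± 0.562 FPKM (mean ± SD, n = 3 each). CENPT overlaps an unnamed entry on the opposite strand, whose reads were 0.368 times its own, and the strand setting is not known.

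CENPA, the centromeric histone that marks the site (chromosome 16, 56578 to 58190), was the member of the inner layer that fell least in the main analysis. CENPT (-0.97 ± 0.16) and CENPM (-1.07 ± 0.23) lay within its SE. The order also changed between fits: CENPM was at -0.47 in its smallest fall and CENPA at -0.59. CENPA was at 15.0, 22.4 and 11.2 FPKM in the myoblast libraries and at 9.34, 8.92 and 6.96 in the myotube libraries. The groups did not overlap, but myoblast replicate 3 came close to the first myotube library. Its log2 change was -0.88 ± 0.26 (edgeR adjusted p = 0.0192), so that myotubes kept 54.5% of the myoblast level. The call was lost without myoblast replicate 2 (-0.59, adjusted p = 0.0568), myotube replicate 2 (-0.90, 0.0525) or myotube replicate 3 (-0.75, 0.0723). Its counts were low, from 59 to 201 reads.

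The other inner genes fell between these limits. CENPL and CENPN, which form a pair that contacts the CENP-A nucleosome, changed by -2.55 ± 0.24 and -1.78 ± 0.18. CENPI and CENPK, which sit in another subcomplex together, changed by -2.36 ± 0.25 and -1.36 ± 0.23, and CENPO and CENPP of a further subcomplex by -2.36 ± 0.19 and -1.20 ± 0.26. Myotubes kept 17.1% of the myoblast level of CENPL and 29.2% of that of CENPN, 19.5% of CENPI and 38.9% of CENPK, and 19.5% of CENPO and 43.4% of CENPP. CENPM, a small protein of the CENPI subcomplex, changed by -1.07 ± 0.23. CENPP (chromosome 12, 3334370 to 3451194) spans the matrix genes ECM2, ASPN, OGN and OMD on the opposite strand, whose summed reads were 12.4 times its own, and without a known strand setting reads of such partners cannot be told apart.

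The outer kinetochore genes fell by similar amounts. All 5 measured genes fell at least 4-fold, and their log2 changes spanned only -2.44 to -2.10. NDC80, which binds the microtubule, was at 33.9, 36.5 and 17.1 FPKM in the myoblast libraries and at 5.11, 5.51 and 5.91 in the myotube libraries, a log2 change of -2.34 ± 0.25 (edgeR adjusted p = 0.000114). NUF2, its partner in the rod-shaped complex, was at 40.1, 45.8 and 22.2 against 7.24, 8.06 and 8.83 FPKM. This was the smallest fall of the layer, -2.10 ± 0.24 (edgeR adjusted p = 0.000143). SKA3, of the complex that helps kinetochores follow shrinking microtubules, had the largest, from 18.6, 19.5 and 11.1 to 2.94, 3.15 and 2.57 FPKM (-2.44 ± 0.21, edgeR adjusted p = 4.19e-05). For all of them myoblast replicate 3 was the lowest of its group and still above each myotube library. SPC25, which anchors the NDC80 complex, changed by -2.30 ± 0.22 and CENPF, a very large coiled-coil protein of the mitotic kinetochore, by -2.16 ± 0.23.

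Of 6 checkpoint and anaphase genes, 5 fell and BUB3 had no call. BUB1, the kinase that gathers checkpoint proteins at the kinetochore, was at 20.4, 19.3 and 10.8 FPKM in myoblasts and 2.84, 3.17 and 2.79 FPKM in myotubes (-2.46 ± 0.22, edgeR adjusted p = 4.55e-05). BUB1B, part of the inhibitor of the anaphase-promoting complex, changed by -2.22 ± 0.23, and TTK, the kinase at the top of the checkpoint, by -1.93 ± 0.27. MAD2L1, whose protein is turned into that inhibitor at unattached kinetochores, was at 35.1, 36.2 and 20.7 FPKM against 9.61, 11.5 and 12.4 (-1.40 ± 0.20, edgeR adjusted p = 0.000531). MAD2L1 thus kept 38.0% of its myoblast level where BUB1 kept 18.2%.

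ESPL1, separase, the protease that cuts cohesin at anaphase, was at 12.6, 14.0 and 7.55 FPKM in myoblasts and 4.33, 5.08 and 4.75 in myotubes. The groups stood apart, with a log2 change of -1.20 ± 0.19 (edgeR adjusted p = 0.000938). BUB3, the small adaptor that carries BUB1 and BUB1B to the kinetochore (chromosome 6, 31536692 to 31548248), was at 106.8, 111.1 and 92.0 FPKM in myoblasts and at 96.4, 95.7 and 88.8 FPKM in myotubes. These groups overlapped, and its log2 change was -0.08 ± 0.08 (edgeR adjusted p = 0.424). BUB3 was called lower with limma on TPM, at -0.24 with an adjusted p of 0.0447, a scaling that moved the median of all genes to -0.13.

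Aurora kinases and their passenger partners fell in all 3 genes measured. AURKA, which works at the spindle poles, was at 33.9, 36.4 and 18.4 FPKM in myoblasts and 5.06, 5.78 and 5.14 in myotubes (-2.41 ± 0.23, edgeR adjusted p = 6.65e-05). INCENP, the scaffold of the chromosomal passenger complex, was at 33.4, 35.5 and 18.9 FPKM against 9.09, 9.06 and 9.75 (-1.59 ± 0.20, edgeR adjusted p = 0.000266). In each the lowest myoblast library was well above the highest myotube library. BIRC5, survivin, which brings the passenger complex to the centromere, changed by -2.17 ± 0.24. No entry named AURKB was found, and that kinase is not analysed here.

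The Polo-like kinases went in different directions. PLK1, the main mitotic kinase of the family, was at 80.1, 87.1 and 45.7 FPKM in myoblasts and at 11.0, 13.7 and 11.4 in myotubes (-2.49 ± 0.22, edgeR adjusted p = 4.32e-05). PLK4, which starts centriole duplication, fell by a like amount (-2.23 ± 0.20). PLK2, a kinase first known as serum-inducible (chromosome Z, 18020074 to 18025386), was at 32.5, 29.8 and 37.6 FPKM in myoblasts and at 50.9, 57.4 and 59.0 in myotubes. It was the only member that rose, 1.74-fold (0.80 ± 0.11, edgeR adjusted p = 0.000436), with every myotube library above every myoblast library, and it was called higher in all 16 fits run. PLK3, a stress-responsive relative, was at 6.49, 5.28 and 7.31 FPKM against 7.12, 6.32 and 5.25. The PLK3 groups overlapped fully (0.02 ± 0.17, edgeR adjusted p = 0.91), and its sign turned under other scalings. PLK3 lies across BTBD19 and an unnamed entry, whose summed reads were 0.134 times its own.

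All 5 measured condensin genes fell, again unequally. NCAPG2, a subunit of condensin II, had the largest fall of any member in the main analysis (-2.91 ± 0.31, edgeR adjusted p = 0.000115). It was at 9.51, 11.0 and 4.45 FPKM in myoblasts against 1.06, 0.954 and 1.14 in myotubes. With limma on log2(FPKM + 1), NCAPG2 was at -2.1 and CENPW at -2.46. The counterpart of NCAPG2 in condensin I, NCAPG, changed by -1.64 ± 0.28, and NCAPD2, also of condensin I, by -1.27 ± 0.16. SMC2, an ATPase arm common to both condensins (chromosome Z, 66464325 to 66488192), was at 42.1, 42.7 and 23.3 FPKM in myoblasts and 5.94, 6.79 and 6.19 in myotubes (-2.45 ± 0.21, edgeR adjusted p = 3.63e-05). SMC4, the other arm of the same ring (chromosome 9, 22249790 to 22281434), was at 100.4, 91.3 and 64.5 FPKM against 45.9, 47.2 and 56.7. SMC4 therefore fell by 0.72 ± 0.15 on the log2 scale (edgeR adjusted p = 0.00399) and kept 60.9% of its myoblast level, where SMC2 kept 18.3%.

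**Figure D2:**
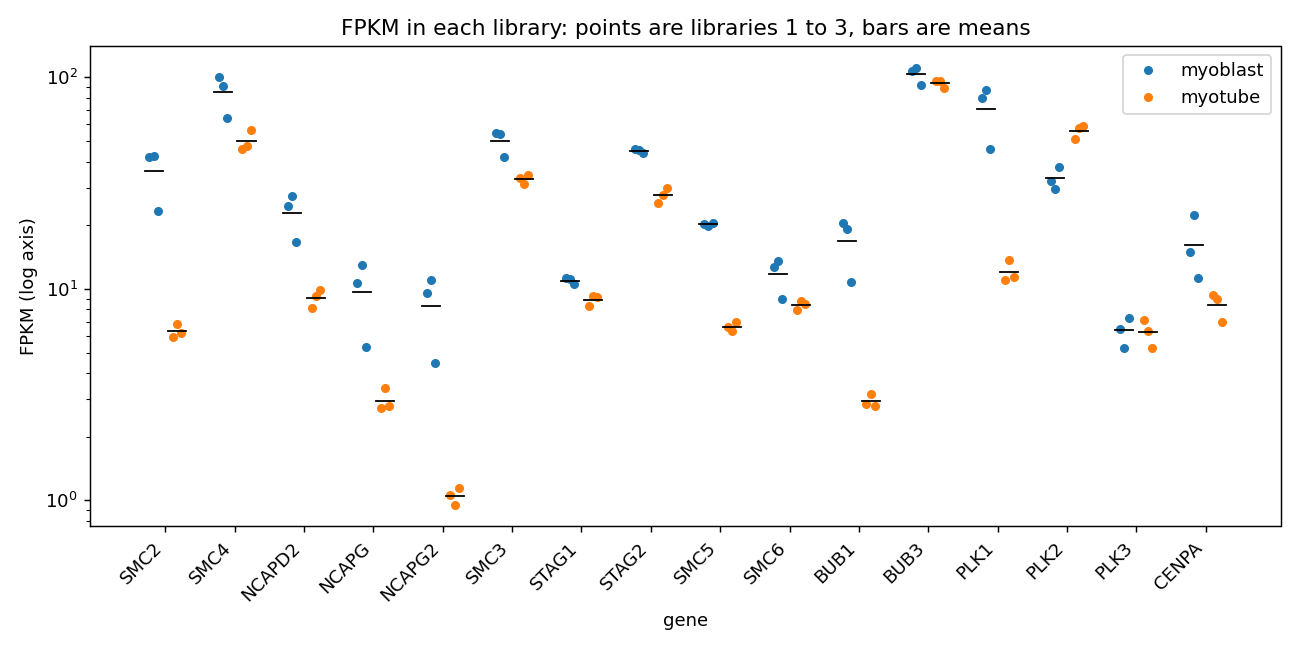
FPKM (y axis, log scale) of 16 members in each of the 3 myoblast and 3 myotube libraries (points, with the group mean as a bar). SMC2 drops from a mean of 36.0 to 6.31 FPKM while SMC4 goes from 85.4 to 49.9, BUB3 stays between 88.8 and 111.1, and PLK2 is higher in all myotube libraries.

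Cohesin and SMC5/6 had the smallest median change of the role groups, -0.54, with all 5 tested genes lower and only SMC5 lower by 2-fold or more. SMC3, an arm of the cohesin ring, was at 54.6, 54.2 and 42.0 FPKM in myoblasts and 33.5, 31.4 and 34.4 in myotubes (-0.54 ± 0.10, edgeR adjusted p = 0.00214). STAG2, the more abundant of the alternative cohesin subunits here, was at 45.9, 45.3 and 44.0 FPKM against 25.5, 27.7 and 30.0 (-0.64 ± 0.08, edgeR adjusted p = 0.00019). Its alternative STAG1 was at 11.2, 11.1 and 10.5 FPKM against 8.26, 9.30 and 9.16. The STAG1 groups did not overlap, but the change was small (-0.24 ± 0.08, edgeR adjusted p = 0.0304), and the call was lost without myoblast replicate 1 or 2 or any myotube library, with adjusted p from 0.057 to 0.0982. STAG1 (chromosome 9, 742147 to 866972) overlaps PCCB on the other strand, which had 2.79 times its reads.

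The SMC5 and SMC6 proteins form a further ring, known for its part in DNA repair. SMC5 (chromosome Z, 34954146 to 35009188) was at 20.2, 19.9 and 20.6 FPKM in myoblasts and at 6.57, 6.29 and 6.98 in myotubes. With a log2 change of -1.55 ± 0.08 (edgeR adjusted p = 3.53e-06) it had the lowest p of all members, and its myoblast libraries were nearly equal, replicate 3 included. SMC6 was at 12.7, 13.6 and 8.98 FPKM against 7.92, 8.79 and 8.52, a change of -0.42 ± 0.14 (edgeR adjusted p = 0.0276). Myoblast replicate 3 lay just above the myotube libraries, and the SMC6 call was lost on leaving out any 1 of the other 5 libraries, with adjusted p from 0.0634 to 0.0915. Without it SMC6 was at -0.57 (edgeR adjusted p = 0.000177).

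A pair of genes match the naming rule without belonging to these complexes. CENPJ, a centriole protein, was at 2.66, 2.43 and 1.33 FPKM in myoblasts and 0.517, 0.474 and 0.664 in myotubes (-1.89 ± 0.28, edgeR adjusted p = 0.000576). AURKAIP1, a protein of the mitochondrial ribosome named for its contact with AURKA, was at 72.0, 85.1 and 72.9 FPKM against 54.4, 58.0 and 55.0 (-0.40 ± 0.08, edgeR adjusted p = 0.0032). In both, the groups did not overlap.

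Ratios between related members within each library compare the sizes of their changes. Of 10 ratios laid out with earlier results of these data known, 5 could be formed. In 4 of these the groups did not overlap, with an exact permutation p of 0.1 (two-sided), or 0.125 after Benjamini-Hochberg adjustment over the 5. A p of 0.1 is the smallest that 3 against 3 libraries can give. Since the pairs were not chosen blind to the data, these p-values only describe how the libraries separate. The FPKM of NCAPG over that of NCAPG2 was 1.13, 1.18 and 1.20 in the myoblast libraries and 2.56, 3.54 and 2.43 in the myotube libraries. The ratio of SMC2 to SMC3, a condensin against a cohesin arm, went from 0.77, 0.788 and 0.556 to 0.178, 0.216 and 0.18. STAG1 over STAG2 moved from 0.243, 0.246 and 0.238 to 0.324, 0.335 and 0.306, so that STAG1 rose relative to STAG2 although both were lower. The STAG1 values may hold reads of PCCB, which overlaps STAG1, since the strand setting is not known. PLK1 over PLK2 fell from 2.47, 2.92 and 1.22 in myoblasts to 0.217, 0.239 and 0.194 in myotubes. FPKM of PLK1 implied 0.727 of its listed length and that of PLK2 1.0. Whether the ratio of 1.22 in myoblast replicate 3 lies above 1 thus depends on the length used. PLK4 over PLK1 overlapped between the groups (exact permutation p = 0.3).

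A further 3 ratios were picked after their values had been seen and carry no test. SMC2 over SMC4 was 0.419, 0.468 and 0.361 in myoblasts and 0.13, 0.144 and 0.109 in myotubes. SMC5 over SMC6 was 1.59, 1.47 and 2.29 in myoblasts and 0.829, 0.715 and 0.819 in myotubes. BUB1 over BUB3 went from 0.191, 0.174 and 0.117 to 0.0294, 0.0331 and 0.0314. In all 3 the myotube libraries lay outside the range of the myoblast libraries. FPKM of 27 of the 40 tested members implied a shorter length than the table gives, down to 0.542 of it for NDC80, which sets the level of a ratio but not its difference between groups.

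**Figure D3:**
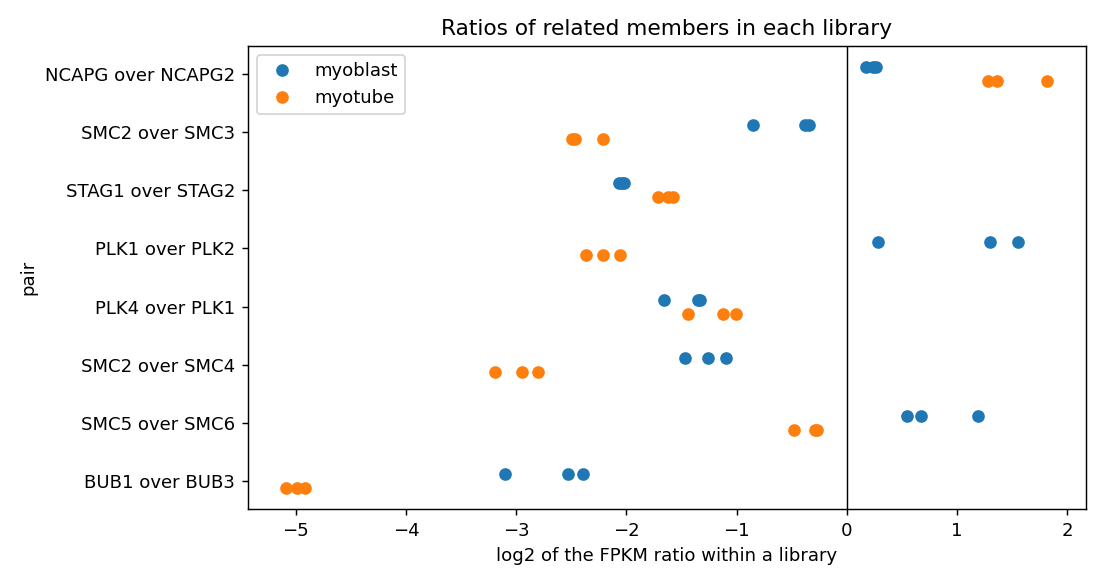
Log2 of the ratio of FPKM of related members (x axis) in each myoblast and myotube library (points, 3 each), with a line at equal FPKM. All pairs but PLK4 over PLK1 separate the groups, and the last 3 pairs were chosen after their values were seen.

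Myoblast replicate 3 held less of this machinery than the other myoblast libraries, but not of every member. It was the lowest of the 3 myoblast libraries in 35 of the 40 tested members, and in 6804 of the 15959 genes tested. The median difference from the mean of replicates 1 and 2 was -0.89 (log2) over the outer kinetochore genes, -0.86 over the Aurora and passenger genes, -0.81 over condensin and -0.77 over the inner kinetochore. Over cohesin and SMC5/6 it was -0.04. Within that group it ran from -0.49 for SMC6 and -0.32 for SMC3 through -0.04 for STAG1 and 0.0 for STAG2 to 0.09 for SMC5. In single genes it ran from -1.14 for NCAPG2 and -1.09 for NCAPG through -0.52 for SMC4 and -0.19 for BUB3 to 0.09 for SMC5, 0.33 for PLK2 and 0.37 for PLK3. The log2 changes from myoblast to myotube of the same genes without that library were -3.21 for NCAPG2, -1.93 for NCAPG, -0.87 for SMC4, -0.14 for BUB3, -1.52 for SMC5, 0.91 for PLK2 and 0.16 for PLK3.

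**Figure D4:**
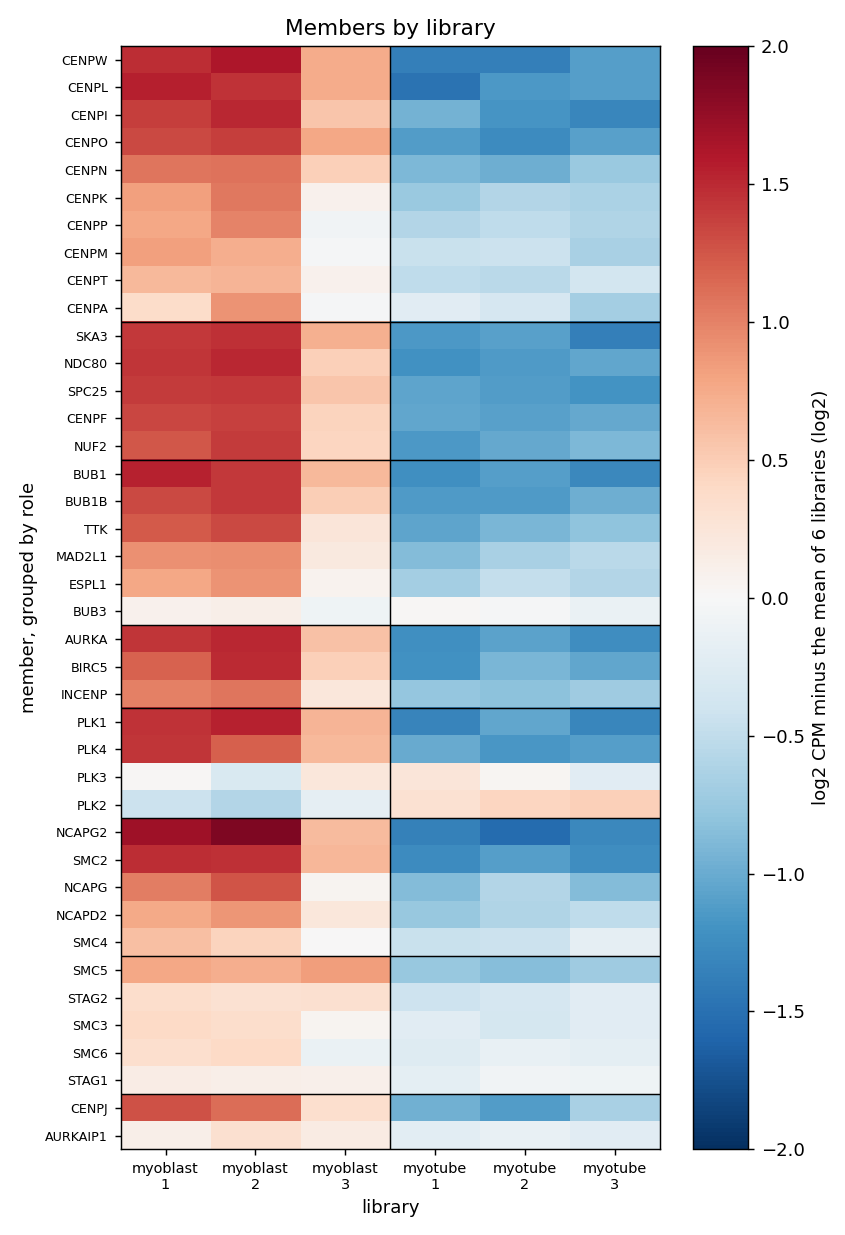
Log2 CPM of each tested member minus its mean over the 6 libraries (colour, log2), with libraries in columns and members grouped by role in rows. CPM are counts scaled to the library total after TMM scaling, with a prior count of 2. The myoblast columns are high and the myotube columns low for most members, myoblast replicate 3 is paler (median 0.33 against 1.04 and 1.10), and BUB3, PLK3, STAG1 and AURKAIP1 show little contrast.

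The order of the members by level differed between the groups. By mean FPKM the leading genes in myoblasts were BUB3 (103.3), SMC4 (85.4), AURKAIP1 (76.6), PLK1 (71.0) and SPC25 (58.2). In myotubes they were BUB3 (93.7), AURKAIP1 (55.8), PLK2 (55.7), SMC4 (49.9) and SMC3 (33.1), and PLK1 and SPC25 had left the first 5. All members together held 0.194%, 0.202% and 0.129% of summed FPKM in the myoblast libraries and 0.0711%, 0.0743% and 0.0762% in the myotube libraries. The outer kinetochore share went from 0.0230 ± 0.00769% to 0.00426 ± 0.000118% and the cohesin and SMC5/6 share from 0.0212 ± 0.00179% to 0.0121 ± 0.00064% (mean ± SD, n = 3 each).

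Other genes of the same machinery or close to it, outside the naming rule, were split. By the same test 34 of 50 fell and 3 rose, while no call was made for 13, with a median log2 change of -0.36, beside 29.1% lower, 30.0% higher and a median of 0.00 over all genes tested. Without myoblast replicate 3, 34 fell and 4 rose. Over all alternatives the count that fell ran from 25, at an adjusted p under 0.01, to 36, with limma on TPM. It was 26 without myotube replicate 2. Among 11 other kinetochore genes 10 fell, led by the microtubule depolymerase KIF2C (-2.47 ± 0.24), KNTC1 of the complex that brings dynein to kinetochores (-2.32 ± 0.26) and MIS12, which joins the inner to the outer layer (-1.90 ± 0.26). Of these 10, SPDL1 overlapped between the groups and was called in 9 of the 16 fits run. CLASP2 was called in 10 of the 16, and both were named after their values were seen. Of 17 checkpoint and anaphase genes 13 fell and 1 rose. Of these 13, CDC27 was called in 8 of the 16 fits run and ANAPC2 in 9, both named after their values were seen. The CDC27 call was lost without myoblast replicate 3 (edgeR adjusted p = 0.0895). UBE2C, a ubiquitin enzyme of the anaphase-promoting complex, was at -2.35 ± 0.20, its activator CDC20 at -2.34 ± 0.21 and the spindle factor TPX2 at -2.30 ± 0.21. RCC2, named after its value was seen, was the gene that rose (0.61 ± 0.09).

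Of 4 genes for loading CENP-A, MIS18A fell (-1.14 ± 0.18, edgeR adjusted p = 0.000782) and 3 had no call, among them OIP5, a partner of MIS18A, at 17.8 and 18.0 mean FPKM (named after its value was seen). Without myoblast replicate 3, 3 of the 4 fell: MIS18A, and the histone chaperones RBBP7 (-0.36, edgeR adjusted p = 0.0171) and RBBP4 (-0.22, edgeR adjusted p = 0.0277), also named after their values were seen. Of the 16 fits run, RBBP7 was called in only 1 and RBBP4 in only 2. Among 10 cohesin partners 3 fell, 2 rose and 5 had no call, with a median of -0.01, shares close to the 29.1% lower and 30.0% higher over all genes tested or below them. ESCO2, which acetylates SMC3 in S phase, fell by 1.30 ± 0.18 on the log2 scale, and CTCF, which halts cohesin on chromatin, by 0.40 ± 0.08. NSMCE2, of the SMC5/6 ring, rose (0.40 ± 0.10, edgeR adjusted p = 0.00984). The remaining calls, named after their values were seen, were RAD21 and HDAC8. RAD21, a subunit of the cohesin ring, fell (-0.30 ± 0.09, edgeR adjusted p = 0.017), with every myotube library below every myoblast library. HDAC8 rose (0.33 ± 0.08, edgeR adjusted p = 0.00583). The release factor WAPL was at 0.07 ± 0.07, the loader MAU2 at 0.02 ± 0.07 and ESCO1, the relative of ESCO2, at -0.04 ± 0.08, all without a call and named after their values were seen. A looser list of 8 tested genes was drawn up for chromosome compaction, and not all of them act mainly in it. In that list 7 fell, led by the topoisomerase TOP2A (-2.41 ± 0.22), MCPH1 (-1.43 ± 0.23) and RIF1 (-1.32 ± 0.14). Of these 7, CHTOP, named after its value was seen, was called in 9 of the 16 fits run.

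Muscle lineage markers were present in every library, among them MYOD1 at 135.7 FPKM or more and MYOG at 273.7 FPKM or more. The summed FPKM of the 12 entries was 2396.9 to 4305.4 in myoblasts, highest in replicate 3, and 1366.3 to 1446.8 in myotubes. The sum hides entries that went the other way in myoblast replicates 1 to 3. MYF5 was at 359.8, 335.9 and 185.2 FPKM, Pax-7 at 91.5, 84.3 and 64.3 and MYF6 at 54.2, 44.3 and 33.4. All other entries of the list were highest in myoblast replicate 3 among the myoblast libraries. Fibroblast markers rose in 9 of 10 genes tested, with a summed FPKM of 1070.7 to 1865.1 in myoblasts, lowest in replicate 3, and 4535.0 to 5242.4 in myotubes. Of 10 leukocyte markers 3 rose and 1 fell, beside 30.0% and 29.1% of all genes tested, and their summed FPKM was 70.0, 78.9 and 141.0 in myoblasts and 116.4 to 123.6 in myotubes. Erythroid markers fell in 3 of 5 genes (26.2 to 80.8 against 5.95 to 6.09 FPKM), epithelial in 4 of 5 (34.9 to 83.4 against 14.7 to 16.5), endothelial in 3 of 5 (5.07 to 6.80 against 1.38 to 1.86) and neural in 3 of 5, with 1 higher (11.6 to 14.3 against 8.26 to 9.78). Myoblast replicate 3 held the highest sum of the myoblast libraries for each of these last 5 lists. No marker had 0 reads in all libraries of a group, though HBAA and HBAD were listed at 0 FPKM in 2 of 3 myotube libraries. The part of other cell types in the falls described above was not tested.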

How the data were processed

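RNA-seq tables of 6 chicken libraries were used, 3 per group, grouped by developmental stage and numbered by title. HISAT and HTSeq are named per the submitters' processing notes. Versions, build, annotation, strand setting and filters were not given in the sources used here. The deposited tables hold raw read counts per gene and the FPKM that the authors computed. From every table, 2 lines with no gene name and no counts were left out.

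Counts were tested with edgeR 4.0.16 in R 4.3.3 (quasi-likelihood, TMM scaling, filterByExpr at a minimum count of 10 and total of 15, no block, two-sided, Benjamini-Hochberg over 15959 genes); a call is an adjusted p under 0.05. SE was computed as |log2 change| / sqrt(F), an approximation. Scripts were tested on simulated data. FPKM gave levels and ratios, compared by exact permutation with scipy 1.17.1. Replicates differed by more than sampling noise, at a chi-square per degree of freedom of 7.68 or more. Counts of tested members ran from 41 to 8182 reads.

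Members, lists and ratios were chosen with earlier results of these data known. Values in every library are given for the largest and smallest change per role at a mean FPKM of at least 1, every member higher or without a call, and a fixed set. Companion genes named are up to 3 called per list at a mean FPKM of at least 2. Of 95 companion symbols 52 had an entry. Entries named AURKB, NCAPH and SMC1A, of the fixed set, were not found and are not analysed here. Coordinates are those of the tables. The promoter comparison could not be made, since no sequence table was at hand.

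Alternatives were DESeq2 1.42.0, its size factors in edgeR, no filter, limma 3.58.1 on FPKM with pseudocounts of 0.1, 1 and 5, a threshold of 0.01, a replicate block and leaving out each library; library sizes alone and limma on TPM were added after seeing the data.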

Additional observations from a re-analysis of the deposited data

How the results depend on the processing

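The count of members lower in myotubes was 34 to 38 over all alternatives, against 37, and PLK2 was higher in each fit. Of the 40 members tested, 35 were called in all 16 fits; the others were CENPA, SMC6, STAG1, BUB3 and PLK3. The count of cohesin and SMC5/6 genes called lower, 5, was 3 at an adjusted p under 0.01. It was also 3 on leaving out any library but myoblast replicate 3, without which it stayed at 5. With no filter, with the replicate block and with limma on log2(FPKM + 5) it was 4. The median log2 change of members was -1.08 with limma on log2(FPKM + 5), where the pseudocount shrinks low genes; PLK3 turned to -0.02, -0.03 and -0.02 with pseudocounts of 1, 0.1 and 5, to -0.12 on TPM, to -0.03 with library sizes alone, and to -0.11 without myoblast replicate 2 or myotube replicate 1, with no call in any; without myoblast replicate 3 it was at 0.16. With TPM, 39.0% of all calls were rises, against 50.7% in the main analysis and 46.1% with library sizes alone. STAG1 was also lost with no filter (edgeR adjusted p = 0.055). No pairing of the libraries by replicate number was seen. Same-numbered libraries correlated at 0.037, 0.03 and -0.05 in their deviations from group means, and differently numbered ones at -0.121 to 0.102. Such values cannot tell whether libraries shared a culture. With the replicate block 36 members were lower (median -1.66), and STAG1 was at an edgeR adjusted p of 0.061. CENPA and CENPJ had the fewest reads of the members tested, which limits the precision of their values.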
